A study of Mus musculus with 6 samples.

Results

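The PDZ-LIM proteins, the FHL proteins and the cysteine-rich protein CRP1 were examined in mouse embryonic fibroblasts as the LIM domain proteins of actin structures outside the LASP and zyxin families. The set was defined by gene name: Pdlim1, Pdlim2, Pdlim3, Pdlim4, Pdlim5, Pdlim7, Fhl1, Fhl2, Fhl3 and Csrp1, with every probe that the supplied platform annotation assigns to each of them. All 10 genes were on the array, with 22 of its 45281 probes, and they were 10 of the 19057 genes tested. Total RNA had been hybridised to Illumina bead arrays from Lasp1+/+ fibroblasts (wild type, 3 arrays) and from fibroblasts in which Lasp1 was disrupted on both chromosomes (Lasp1-/-, knockout, 3 arrays), all of the C57Bl/6NCr strain. No other allele, treatment, passage number or embryonic age is named in the labels. They also do not say whether the arrays of a group came from separate embryos or cultures, so p-values reflect spread among these arrays only, possibly technical spread.

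A LIM domain is a pair of zinc fingers that binds other proteins, and many LIM proteins sit on stress fibres, focal adhesions or the Z-discs of muscle. In the PDZ-LIM proteins an amino-terminal PDZ domain docks on alpha-actinin, the crosslinker of actin bundles, and the carboxy-terminal end carries either a single LIM domain (the ALP subfamily: Pdlim1, Pdlim2, Pdlim3 and Pdlim4) or a series of them that recruits kinases and receptors (the Enigma subfamily: Pdlim5 and Pdlim7). FHL proteins consist of LIM domains alone and move between actin structures and the nucleus, where they act as cofactors of transcription. CRP1, the product of Csrp1, binds zyxin and alpha-actinin.

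Among these 10 genes Pdlim4 rose and Pdlim3 fell in the knockout, both by more than the spread between arrays. The Enigma genes Pdlim7 and Pdlim5 rose by a smaller amount, and each call was lost under 8 of 14 alternative analyses, given with their values. At their brightest probes Fhl1, Fhl3, Csrp1 and Pdlim1 did not pass the test and overlapped between genotypes, while Pdlim2 and Fhl2 lay lower in every knockout array without passing. By limma with Benjamini-Hochberg adjustment over all genes and a threshold of 0.05, 3 of the 10 were called higher, 1 lower and 6 did not pass. The same test called 2.19% of all genes higher and 4.08% lower, and among the 11985 genes above the median of all probe means, where 9 of the 10 lie, it called 9.94% in either direction (6.28% over all genes). The arrays of the genotypes were separate in 3 members upward and 3 downward, against 7.34% and 14% of all genes. At an unadjusted p under 0.05 the members numbered 3 higher and 3 lower. The share of all genes was not counted at that threshold, so unadjusted counts here and below have no background beside them. The median log2 difference, knockout minus wild type here and below, was 0.07 over the 10 genes and -0.02 over all genes. Of all calls 34.9% were higher in the knockout in the deposited scaling, against 48.2% after quantile normalization.

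**Figure D1:**
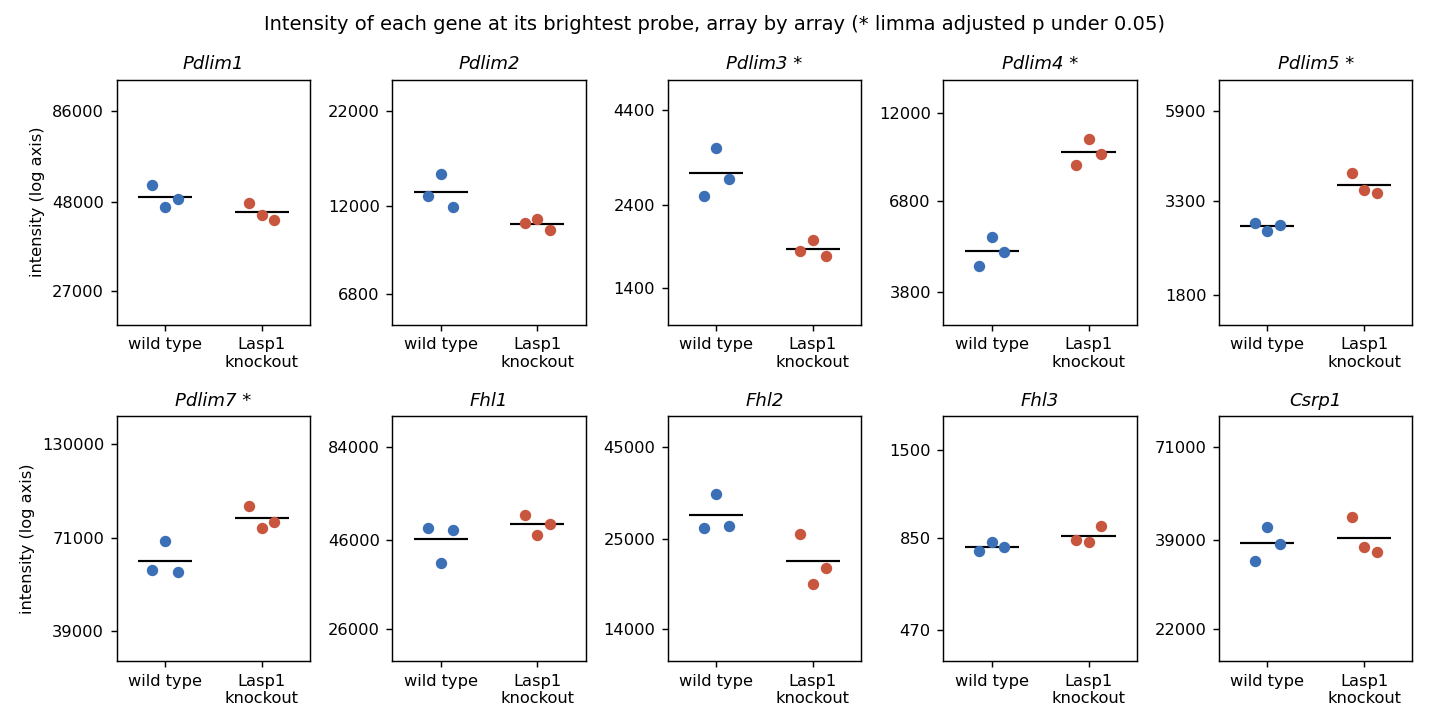
Intensity (log axis, a separate one in each panel spanning the same fold range) of each of the 10 genes at its brightest probe in the 3 wild-type arrays (blue) and 3 Lasp1 knockout arrays (red); bars are group means and an asterisk marks a limma adjusted p under 0.05. The groups are separate in Pdlim2, Pdlim3, Pdlim4, Pdlim5, Pdlim7 and Fhl2, and Pdlim4 shows the widest gap, with means of 4936 and 9326.

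The targeted gene itself checks the labels. The mean intensity at the brightest Lasp1 probe was 144104 ± 7634 over the wild-type arrays and 50898 ± 1072 over the knockout arrays (SD, n = 3 each; limma adjusted p = 1.17e-05). The knockout signal there was 35.3% of wild type. A dimmer probe (ILMN_2879745) differed 4.10-fold, from 12502 ± 1299 to 3097 ± 738, and the dimmest (ILMN_2596851), at 1107 and 923, did not pass (limma adjusted p = 0.121 over all probes). The residual signal thus differed between probes, and the position of the probes in relation to the disruption was not analysed here. Every array had been scaled to a median of 1000, and the upper quartile ran from 2018 to 2330, highest in wild type replicate 2 and knockout replicate 1. The labelled cell type showed its markers, since 12 of 12 fibroblast markers had a mean intensity over 1500 across the 6 arrays. In the knockout arrays alone Postn averaged 1455. The summed intensity of the 12 was 1000783 to 1161585 in wild type and 815530 to 871012 in knockout. Of the 12, 6 fell, beside 4.08% of all genes. In total RNA of a culture, fewer cells of a type and less RNA per cell cannot be told apart. Since several members are best known from muscle, muscle markers were read on the same arrays. The myogenic regulators Myod1, Myog, Myf5 and Myf6 and the muscle creatine kinase Ckm stayed below 1500 in both groups, near the array median, as did 14 of the 17 measured skeletal muscle markers. The skeletal actin Acta1, from 4546 to 12873, and the cardiac actin Actc1, from 952 to 1448, were the 2 of the 17 that rose. The summed skeletal muscle markers ran from 24241 to 25601 in wild type and from 33865 to 34637 in knockout. The summed smooth muscle markers ran from 607453 to 624882 and from 684596 to 699573, with rises of Lmod1, Tagln and Actg2 among 10 measured and with Myocd, Cnn1 and Kcnmb1 below 1500. Most of that sum was Acta2, which read 507140 and 541317 and did not pass (limma adjusted p = 0.561). Smtn, at 35474 and 34227, did not pass either. Epithelial markers summed to 24663 to 30009 in wild type and 12052 to 12913 in knockout. Over all 6 arrays Krt8, Krt14 and Krt19 averaged above 1500 and Cdh1, Epcam and Krt5 below it. Krt14 fell from 15557 to 2565, Krt8 from 2237 to 1370 and Krt19 from 2953 to 2172. Krt18, Cldn4 and Cldn6 lay higher in every knockout array without passing. The widest change of any marker was in cartilage collagen: Col2a1 read 1207 ± 21.8 and 18527 ± 3537 (SD, n = 3 each). Of the 9 cartilage markers 3 rose (Col2a1, Sox5 and Sox6) and 2 fell (Sox9 and Comp), Acan, Col9a1, Col11a2 and Matn1 stayed below 1500, and the list summed to 58070 to 70157 in wild type and 69414 to 80454 in knockout. Among 7 endothelial markers Emcn rose 1.53-fold, with Pecam1 and Cdh5 below 1500 and sums of 9186 to 9696 and 10044 to 10526. Tek, the only other endothelial marker above 1500, lay lower in every knockout array without passing (2147 and 1750, limma adjusted p = 0.0765). Among 7 macrophage and blood markers Lyz2 rose 1.47-fold, with Ptprc, Csf1r and Adgre1 below 1500 and sums of 9728 to 10995 and 12528 to 13172. The part of these shifts in the member genes' differences was not tested.

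Pdlim4 had the largest difference of the set. Its product, known as RIL, is an alpha-actinin binding protein of stress fibres. The wild-type arrays read 4492, 5399 and 4916 at its brightest probe (ILMN_2606162), and the knockout arrays read 8596, 10170 and 9212. The lowest knockout array therefore lay above the highest wild-type array. The group means were 4936 ± 454 and 9326 ± 793 (SD, n = 3 each). The log2 difference was 0.92 ± 0.10 (SE), or 1.89-fold, with a limma adjusted p of 0.000646. The call held in all 14 alternative analyses, with adjusted p-values from 4.28e-08 to 0.00986. A dimmer Pdlim4 probe (ILMN_2563186) read 1016 to 1161 in wild type and 1151 to 1157 in knockout, close to the array median of 1000, and its difference was 0.08 ± 0.07 (limma adjusted p = 0.701 over all probes). That probe is annotated to another cDNA than the bright one, and with both averaged the difference was 0.50 (limma adjusted p = 0.00493).

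Pdlim3, whose product ALP (the actinin-associated LIM protein) sits at the Z-discs of muscle, went the other way. The wild-type arrays read 2532, 3457 and 2839 at the brighter probe (ILMN_2885990), and the knockout arrays read 1784, 1917 and 1719. No knockout array reached the lowest wild-type array. The means were 2943 ± 471 and 1807 ± 101 (SD, n = 3 each). The log2 difference of Pdlim3 was therefore -0.69 ± 0.11 (SE), a 1.62-fold fall, at a limma adjusted p of 0.00711. The call was lost without knockout replicate 3, where the difference was -0.66 with an adjusted p of 0.0567. The dimmer probe (ILMN_1235230) also lay lower in every knockout array, with 1273, 1745 and 1627 in wild type against 1197, 1130 and 1135. Its difference of -0.41 ± 0.11 did not pass over all probes (limma adjusted p = 0.0849). Both Pdlim3 probes are dim, at most 3457 against an array median of 1000, so background light makes up part of each value. After a background correction the difference of the brighter probe was -0.97 ± 0.18 (limma adjusted p = 0.0244 over genes). Tested over all probes, the brighter probe did not pass after that correction (limma adjusted p = 0.0555). Nor did it pass there without wild type replicate 3 (0.0508) or knockout replicate 3 (0.0689).

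Promoter windows of these ALP genes are shown because Pdlim3 and Pdlim4 differed in opposite directions while their relative Pdlim1 did not pass. Each window holds 250 bases before and 50 after an annotated start, 5′ to 3′ on the gene's strand, taken from RefSeq with assembly GRCm38.p6. The table matched 9 of the 10 members with 13 windows, and Pdlim2 has no entry there. Capitals mark matches, on either strand, to CATTCC, the core letters that TEAD factors bind, and to the CArG box, the site of the serum response factor SRF. Neither motif overlapped the other in these windows. Pdlim3 (chr8:45885237-45885536, + strand) held CATTCC at 11 bases before the start and its reverse complement at 201 bases before it. Pdlim4 (chr11:54068968-54069267, - strand) and Pdlim1 (chr19:40271567-40271866, - strand) held neither motif. Of all 32851 windows of this length 14.7% held CATTCC and 1.63% held a CArG box. Among the 13 member windows 1 held CATTCC and 3 held a CArG box, a description of the letters only.
Pdlim3: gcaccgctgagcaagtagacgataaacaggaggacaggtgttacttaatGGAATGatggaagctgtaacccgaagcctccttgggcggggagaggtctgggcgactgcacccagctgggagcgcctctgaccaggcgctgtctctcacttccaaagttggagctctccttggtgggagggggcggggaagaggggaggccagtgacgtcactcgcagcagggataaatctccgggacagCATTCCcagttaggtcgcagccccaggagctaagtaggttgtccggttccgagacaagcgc
Pdlim4: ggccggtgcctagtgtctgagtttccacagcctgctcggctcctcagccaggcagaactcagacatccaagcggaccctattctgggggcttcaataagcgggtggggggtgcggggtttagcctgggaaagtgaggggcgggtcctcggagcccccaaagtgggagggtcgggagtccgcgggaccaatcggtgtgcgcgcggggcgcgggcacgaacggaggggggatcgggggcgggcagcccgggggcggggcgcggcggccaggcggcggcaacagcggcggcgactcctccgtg
Pdlim1: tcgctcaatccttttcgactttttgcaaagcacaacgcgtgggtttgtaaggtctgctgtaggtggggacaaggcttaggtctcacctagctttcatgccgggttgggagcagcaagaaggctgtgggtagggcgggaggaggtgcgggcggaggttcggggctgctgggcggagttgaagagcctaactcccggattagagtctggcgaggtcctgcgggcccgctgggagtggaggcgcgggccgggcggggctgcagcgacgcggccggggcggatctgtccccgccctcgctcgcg

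The remaining ALP genes lay lower in the knockout without passing. Pdlim1 encodes CLP36, which links alpha-actinin to stress fibres, and a single probe measured it. The wild-type arrays read 53485, 46304 and 48935, and the knockout arrays 47650, 44065 and 42729. The groups overlapped, since knockout replicate 1 exceeded wild type replicate 2. The difference was -0.15 ± 0.08 (SE) with a 95% interval of -0.33 to 0.04, and the limma adjusted p was 0.423. Pdlim2 encodes a nuclear and cytoskeletal protein that promotes degradation of the NF-kB subunit p65 and of STAT4. Its brightest probe (ILMN_2880906) read 12761, 14652 and 11854 in wild type and 10700, 11007 and 10253 in knockout. The groups did not overlap, yet the difference of -0.29 ± 0.09 had a limma adjusted p of 0.104. The other Pdlim2 probes also had lower knockout means. At ILMN_2619767 the arrays read 7267, 8294 and 7925 against 6125, 5339 and 5860. The difference of -0.44 ± 0.08 passed over all probes (limma adjusted p = 0.0178). It did not pass when replicate 3 of wild type or replicate 2 or 3 of the knockout was left out (0.0772 to 0.098). Nor did it pass after background correction (0.262), with the replicate block (0.123) or with a trended and robust variance (0.059). At ILMN_1221178 and ILMN_2764732 the differences were -0.27 and -0.18, with adjusted p-values of 0.198 and 0.315. With all 4 probes averaged, Pdlim2 passed at -0.30 with a limma adjusted p of 0.0445. Probes of a gene read the same RNA and are not replicates.

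The Enigma genes both rose, by similar amounts on the log2 scale. Pdlim7 encodes Enigma, also called LMP-1, which binds tropomyosin and receptor tyrosine kinases and promotes bone formation. Its bright probe (ILMN_2430813) read 57646, 69410 and 57024 in wild type and 87262, 75457 and 78654 in knockout. Every knockout array exceeded every wild-type array. The means were 61360 ± 6978 and 80458 ± 6106 (SD, n = 3 each), and the difference was 0.39 ± 0.10 (SE), or 1.31-fold, with a limma adjusted p of 0.0485. That value lay just inside the threshold: the same probe had an adjusted p of 0.0564 when all probes were tested, and the gene did not pass when replicate 1 or 3 of wild type or any 1 of the knockout arrays was left out (0.0841 to 0.213), after background correction (0.259) or with both probes averaged (0.147). The other Pdlim7 probe (ILMN_1239436) read 792 to 898 on all arrays, below the array median, with a difference of 0.01 ± 0.07.

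Pdlim5 encodes ENH, the Enigma homologue that brings protein kinase C to alpha-actinin and holds the inhibitor Id2 in the cytoplasm. The brightest of its 4 probes (ILMN_2621862) read 2874, 2719 and 2838 in wild type and 3947, 3535 and 3473 in knockout. The wild-type arrays were close together, and all knockout arrays lay above them. The means were 2810 ± 81.1 and 3651 ± 258 (SD, n = 3 each), a difference of 0.38 ± 0.08 (SE), or 1.298-fold, with a limma adjusted p of 0.0208. The gene did not pass without wild type replicate 3 or any 1 of the knockout arrays (0.0568 to 0.0903), with a trended and robust variance (0.0639), after background correction (0.158) or with all probes averaged (0.135). A second Pdlim5 probe (ILMN_3137570), annotated to another transcript, read 1301, 1296 and 1429 against 1976, 1516 and 2441. Its knockout arrays were all higher but far apart, and the difference of 0.53 ± 0.15 did not pass over all probes (limma adjusted p = 0.0941). The remaining probes, ILMN_2625458 and ILMN_2595115, read 756 to 953 and showed differences of -0.03 and 0.03. One of them is annotated to the same transcript as the brightest probe, so the annotation alone does not separate the bright probes from the dim ones.

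**Figure D2:**
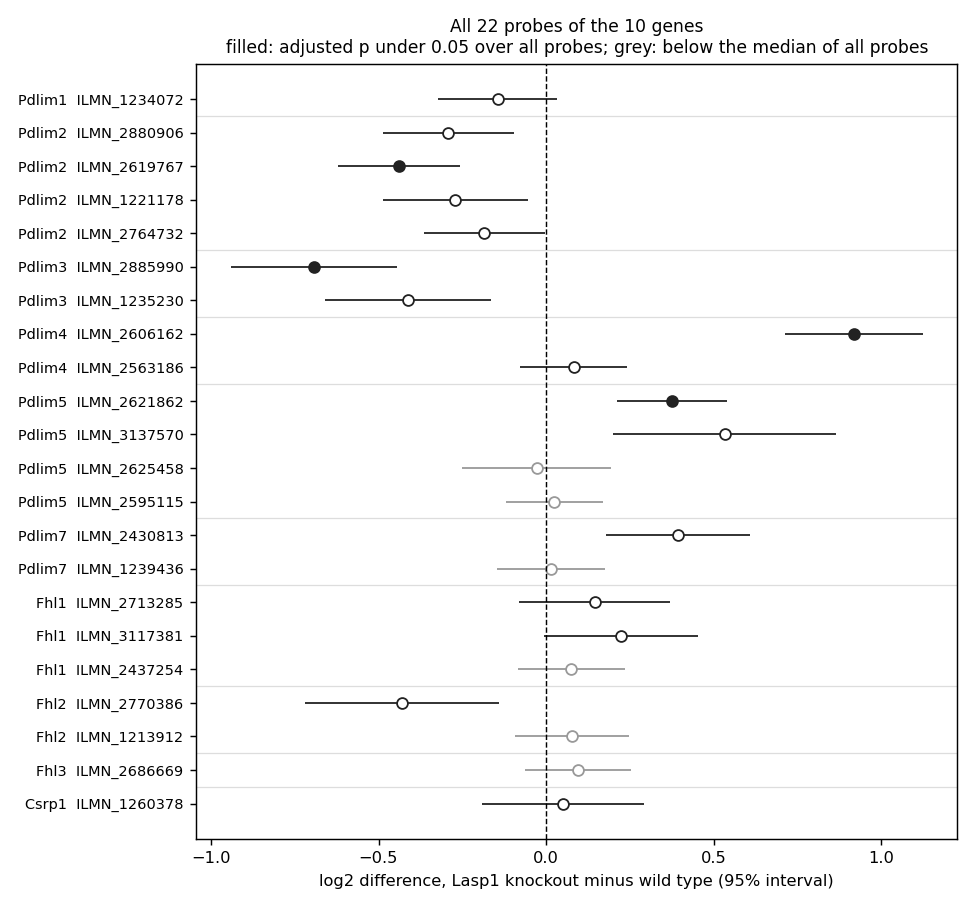
Log2 difference, knockout minus wild type, with its 95% interval for each of the 22 probes of the 10 genes. Filled points passed limma's test over all probes at an adjusted p of 0.05, and grey probes lie below the median of all probes. All 4 Pdlim2 probes and both Pdlim3 probes lie below 0, whereas in Pdlim5, Pdlim7 and Fhl2 the grey probes sit near 0 beside brighter probes that do not.

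Over all 45281 probes the test called 1.4% higher and 2.5% lower. Of the 22 member probes it called 2 higher (Pdlim4 and Pdlim5) and 2 lower (Pdlim2 and Pdlim3). The 3 knockout arrays lay entirely above the 3 wild-type arrays at 5 of the 22 probes and entirely below them at 6, against 6.97% and 11.5% of all probes. Of the 22 probes, 16 were above the median of all probe means, and all 4 called probes were among them.

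The promoter windows of the Enigma genes are printed for comparison with those of the ALP genes, since both Enigma genes were called higher in the deposited scaling. Pdlim7 has 1 window (chr13:55513397-55513696, - strand) and Pdlim5 has 2, an upstream start (chr3:142395647-142395946, - strand) and a downstream one (chr3:142391801-142392100, - strand). None of the 3 holds CATTCC or a CArG box. In base composition the upstream Pdlim5 window, at 64.7% G and C, resembled that of Pdlim7 at 69.7% more than the downstream Pdlim5 window at 33.3%.
Pdlim7: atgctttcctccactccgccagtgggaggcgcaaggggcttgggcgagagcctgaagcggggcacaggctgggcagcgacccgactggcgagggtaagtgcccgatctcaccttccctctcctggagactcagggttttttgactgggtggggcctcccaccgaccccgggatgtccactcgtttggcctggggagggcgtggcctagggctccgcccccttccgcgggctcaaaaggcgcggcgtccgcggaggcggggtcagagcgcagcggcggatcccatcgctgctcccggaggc
Pdlim5 upstream start: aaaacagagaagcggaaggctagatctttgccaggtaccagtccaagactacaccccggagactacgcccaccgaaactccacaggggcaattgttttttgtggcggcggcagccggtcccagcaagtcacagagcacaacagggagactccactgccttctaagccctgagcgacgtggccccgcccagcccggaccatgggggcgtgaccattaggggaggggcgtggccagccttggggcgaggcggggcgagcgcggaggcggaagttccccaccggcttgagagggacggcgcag
Pdlim5 downstream start: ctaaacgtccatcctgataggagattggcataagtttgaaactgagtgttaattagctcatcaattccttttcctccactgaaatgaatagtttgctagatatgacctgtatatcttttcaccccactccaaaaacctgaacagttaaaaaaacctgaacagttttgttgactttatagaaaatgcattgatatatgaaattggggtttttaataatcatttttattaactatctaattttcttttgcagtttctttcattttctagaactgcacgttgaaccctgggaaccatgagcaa

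No FHL gene passed the test in the deposited scaling. Fhl2 encodes a cofactor that binds integrins, beta-catenin and SRF. Its bright probe (ILMN_2770386) read 26748, 33345 and 27121 in wild type and 25723, 18665 and 20636 in knockout. The highest knockout array lay just below the lowest wild-type array. The means were 29071 ± 3706 and 21675 ± 3642 (SD, n = 3 each), a difference of -0.43 ± 0.13 (SE) with a limma adjusted p of 0.0989. Fhl2 passed after quantile normalization (-0.34, adjusted p = 0.0198), after centring on the upper quartile (-0.41, 0.00831), with array weights (-0.40, 0.0168) and without knockout replicate 1 (-0.56, 0.0299). Its other probe (ILMN_1213912) read 882 to 1031 on all arrays. With both Fhl2 probes averaged the difference was -0.18.

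Fhl1, whose product is abundant in skeletal and heart muscle and is mutated in several myopathies, was read by a pair of bright probes. At ILMN_2713285 the wild-type arrays read 49817, 39682 and 49271 and the knockout arrays 54302, 47494 and 51081. The groups overlapped, with wild type replicate 2 apart at the low end. The difference was 0.15 ± 0.10 (SE), with a 95% interval of -0.09 to 0.38 and a limma adjusted p of 0.55. At ILMN_3117381, annotated to another transcript, the arrays read 44815, 36419 and 47503 against 52903, 48004 and 48653, and the difference of 0.22 ± 0.10 did not pass (limma adjusted p = 0.342 over all probes). The pair followed each other from array to array, with the lowest value in wild type replicate 2 and the highest in knockout replicate 1 at both. Fhl3, a family member of skeletal muscle, was read only by a probe below the array median, at 781, 832 and 806 in wild type and 839, 829 and 918 in knockout, so no level above the array median was read for it.

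Fhl2 has 2 promoter windows in the RefSeq table, and each holds a CArG box. They are shown because FHL2 is known as both a cofactor and a target of SRF, and SRF pathway genes are described below. In the window at chr1:43163912-43164211 (- strand) the box begins 31 bases before the start, and in that at chr1:43196712-43197011 (- strand) it begins 96 bases before it. The third CArG box of the set lies in a Fhl1 window, 102 bases before the start at chrX:56779433-56779732 (+ strand), and its matched letters are CCTAAAATGG.
Fhl2, box at 31 bases: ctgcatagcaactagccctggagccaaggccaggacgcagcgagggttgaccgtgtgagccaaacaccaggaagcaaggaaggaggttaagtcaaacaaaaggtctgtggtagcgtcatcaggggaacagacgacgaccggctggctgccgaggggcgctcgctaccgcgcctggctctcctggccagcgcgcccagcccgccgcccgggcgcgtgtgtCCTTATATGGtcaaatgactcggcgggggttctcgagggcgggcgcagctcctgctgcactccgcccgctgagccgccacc
Fhl2, box at 96 bases: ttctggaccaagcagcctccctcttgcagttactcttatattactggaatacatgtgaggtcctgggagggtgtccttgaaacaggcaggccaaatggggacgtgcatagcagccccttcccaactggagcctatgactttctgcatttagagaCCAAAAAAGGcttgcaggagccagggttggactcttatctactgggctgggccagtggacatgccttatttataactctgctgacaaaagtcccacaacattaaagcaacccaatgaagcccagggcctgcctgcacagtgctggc

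Csrp1 did not pass the test. Its arrays read 34189, 42432 and 38174 in wild type and 45285, 37451 and 36266 in knockout, with overlap between the groups. The difference was 0.05 ± 0.11 (SE), and its 95% interval of -0.20 to 0.30 corresponds to 0.872-fold to 1.23-fold. The limma adjusted p was 0.893, and the sign turned without wild type replicate 1 (-0.03) or knockout replicate 1 (-0.05).

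**Figure D3:**
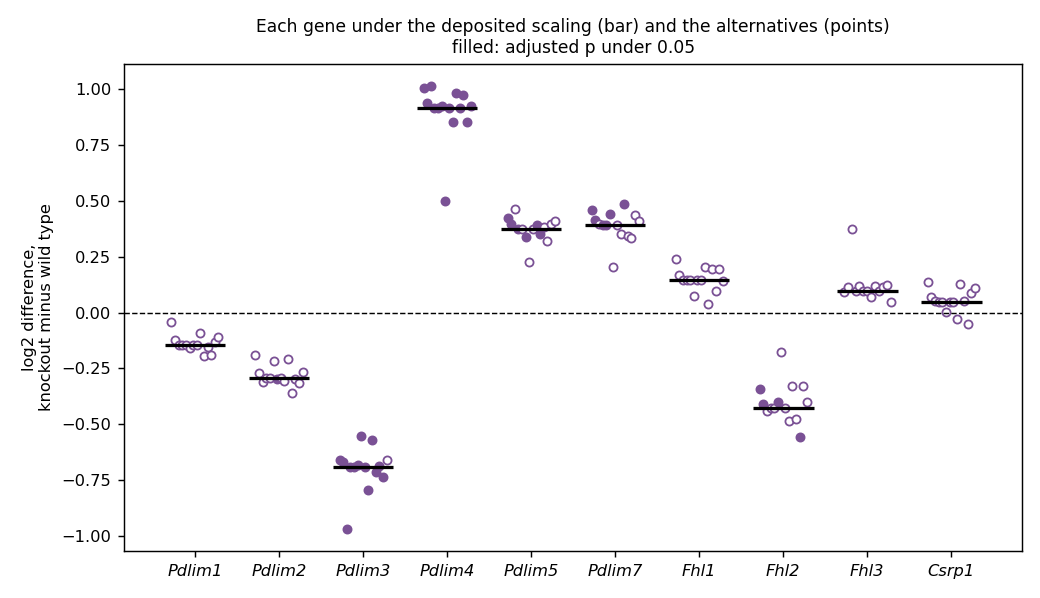
Log2 difference of each gene, knockout minus wild type, in the deposited scaling (bar) and under each alternative analysis (points, filled where the limma adjusted p was under 0.05; 14 per gene, 13 for Fhl3). Pdlim4 is filled throughout and Pdlim3 in all but 1, Pdlim5 and Pdlim7 are filled in 6 of 14 each, and of all genes Csrp1 is the one whose points cross 0.

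The other genes of this machinery were read from lists by the same test. Among 36 measured LIM proteins of actin structures outside the set, 1 rose and 2 fell, beside 2.19% and 4.08% of all genes, and the list's median log2 difference was 0.04. Crip2, a small cysteine-rich LIM protein of the same kind as Csrp1, rose from 37876 ± 1938 to 62537 ± 5456 (SD, n = 3 each; 0.72 ± 0.09 SE, limma adjusted p = 0.00129). Lmcd1, which represses GATA factors, fell from 10593 ± 1697 to 6296 ± 636 (-0.74 ± 0.12, adjusted p = 0.00747), and the other fall was Lasp1 itself. The Z-disc relative Ldb3, a PDZ-LIM protein of the Enigma kind, read 1108 ± 33.4 and 1268 ± 31.3, near the array median, with a difference of 0.20 ± 0.07 (adjusted p = 0.152). The groups did not overlap in 9 genes upward and 3 downward, against 7.34% and 14% of all genes. This list moved with the scaling: 8 rose and 3 fell after quantile normalization and 5 and 3 after centring on the upper quartile. Dropping single arrays gave 2 rises and 4 falls (wild type replicate 1 left out), 4 and 2 (wild type replicate 2), 1 and 3 (knockout replicate 1) and 1 and 1 (knockout replicate 3).

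Of 31 measured binding partners and targets of PDZ-LIM proteins, 4 rose and 1 fell, beside 2.19% and 4.08% of all genes. The list's median was 0.04. Prkca, a protein kinase C, the kinase class that LIM domains of the Enigma kind bind, rose from 8316 ± 1277 to 12173 ± 881 (SD, n = 3 each; 0.56 ± 0.11, limma adjusted p = 0.019). The tropomyosin genes Tpm2 (0.32 ± 0.08, adjusted p = 0.0461) and Tpm1 (0.32 ± 0.08, 0.0442) rose as well. Ret, a receptor kinase that Enigma binds, was called at 1041 against 1469, close to the array median. Tbx4, a limb T-box factor, fell from 10154 ± 1094 to 4468 ± 18.6 (-1.18 ± 0.09, 0.000132). The alpha-actinins, the shared ligands of the PDZ domain, did not pass: Actn1 read 60218 ± 7068 and 72852 ± 5044 (0.28 ± 0.10, adjusted p = 0.152), and Actn4 read 26327 ± 5747 and 23488 ± 6307 (-0.18 ± 0.22, 0.776). Leaving out wild type replicate 2 gave 6 rises, and leaving out wild type replicate 3 gave 0 by limma, with 6 higher at an unadjusted p under 0.05. The replicate block also gave 0 rises by limma, again with 6 higher at that unadjusted threshold. Dropping a knockout array gave 1 rise (replicate 1), 2 (replicate 2) or 1 (replicate 3), and centring on the upper quartile gave 7. There were 2 falls when wild type replicate 1 or wild type replicate 2 was left out.

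Of 28 measured partners of FHL and CRP proteins, 1 rose and 3 fell, beside 2.19% and 4.08% of all genes, with a median of 0.02. Gata6, a GATA transcription factor, rose from 5502 ± 121 to 9820 ± 761 (SD, n = 3 each; 0.83 ± 0.08, limma adjusted p = 0.000369). The forkhead factor Foxo1, which FHL2 represses, fell by 0.60 ± 0.09 on the log2 scale (adjusted p = 0.00384), Nfatc1 by 0.31 ± 0.07 (0.0412) and the growth factor binding protein Igfbp5 by 0.48 ± 0.12 (0.0414). A single fall was left when replicate 3 of wild type or replicate 2 or 3 of the knockout was dropped. With the replicate block 0 fell by limma, with 3 lower at an unadjusted p under 0.05. Dropping wild type replicate 1 gave 2 rises, dropping wild type replicate 2 gave 3, and quantile normalization gave 4.

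SRF, with its actin-sensing cofactors of the MRTF family, controls many genes of contractile filaments. Of 34 measured genes of this pathway, 7 rose and 0 fell by limma, beside 2.19% and 4.08% of all genes. Of the 34, 31 lay above the median of all probe means, where 9.94% of genes were called in either direction. At an unadjusted p under 0.05, 11 were higher and 0 lower, and the median was 0.14. Actg2 and Lmod1, a smooth muscle actin and an actin nucleator, rose by 0.79 ± 0.07 and 0.77 ± 0.07. Tagln (0.63 ± 0.11), Ccn2 (0.56 ± 0.07) and Myl9 (0.40 ± 0.09) rose too, and Tpm1 and Tpm2 are shared with the list of PDZ-LIM partners. Srf itself read 10044 ± 1308 and 11923 ± 736 (SD, n = 3 each) and did not pass (0.25 ± 0.10, adjusted p = 0.211). There were 3 rises when wild type replicate 3 was left out and 4 when any 1 of the knockout arrays was, 2 after background correction and 11 after quantile normalization. Fhl2, also a known SRF target, lay on the other side at -0.43 but did not pass (limma adjusted p = 0.0989). With both Fhl2 probes averaged the difference was -0.18.

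YAP and TEAD form the nuclear arm of the Hippo pathway, which also responds to tension on actin. Of 21 measured genes of that pathway 2 rose and 1 fell, beside 2.19% and 4.08% of all genes, with a median of -0.06. Ankrd1, a target of YAP, rose from 3921 ± 658 to 12455 ± 1214 (SD, n = 3 each; 1.68 ± 0.13, limma adjusted p = 0.000135), and Ccn2 is shared with the SRF list. Mob1a, an activator of the LATS kinases, fell by 0.42 ± 0.07 on the log2 scale (adjusted p = 0.00878). Mob1a was the single fall, and it was lost when wild type replicate 3 or knockout replicate 3 was left out. It was also lost after background correction and with the replicate block. In each of these cases 2 genes were lower at an unadjusted p under 0.05. By contrast, 2 genes fell when wild type replicate 1 or knockout replicate 1 was dropped.

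**Figure D4:**
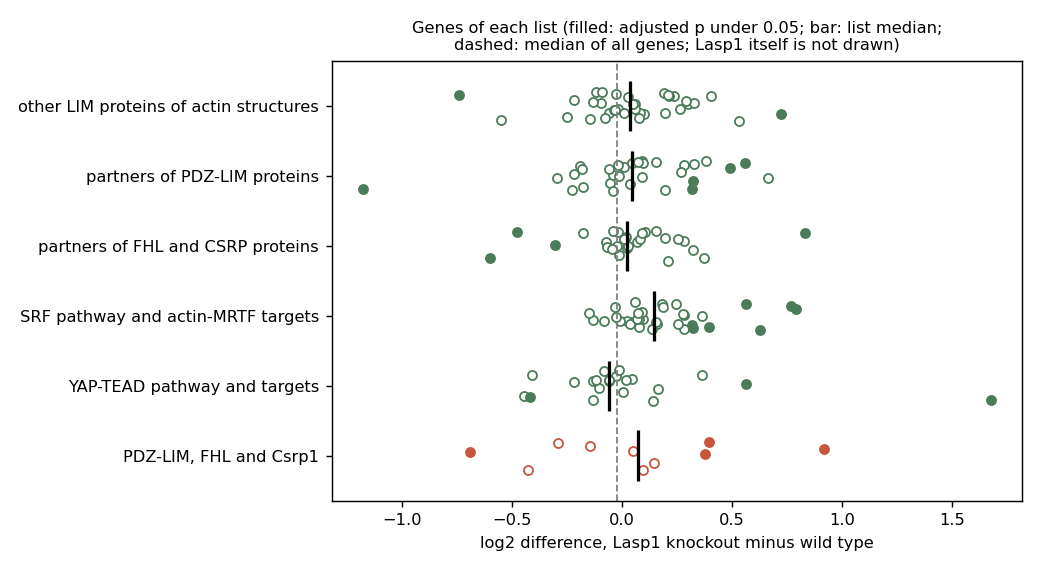
Log2 difference, knockout minus wild type, of every measured gene in the 5 lists (green, Lasp1 not drawn) and of the 10 PDZ-LIM, FHL and Csrp1 genes (red), with filled points at a limma adjusted p under 0.05, the list median as a bar and the median of all genes (-0.02) as a dashed line. The SRF list has its 7 filled points on the higher side, and the red points run from Pdlim3 at -0.69 to Pdlim4 at 0.92.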

How the data were processed

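The deposited table holds 1 linear intensity per probe and array, which the authors had scaled to a median of 1000 in every array; values were not background subtracted to 0. How the arrays were scanned, corrected and summarised is not stated in the labels. Of 45281 probes, 34885 had 1 gene symbol in the platform annotation, 18 had several and 10378 had none. A gene was represented by its probe with the highest mean log2 intensity (19057 genes). Log2 values of the 6 arrays went into limma 3.58.1 under R 4.3.3 (lmFit, eBayes, genotype only, 4 residual and 5.13 prior degrees of freedom), once over genes and once over all probes, two-sided, with Benjamini-Hochberg adjustment. Lists and promoter motifs were described by counts, with no set test. The named genes were all members, Lasp1, up to 6 called genes per list and direction by smallest p, and Actn1, Actn4, Srf and Ldb3; marker genes are named as checks. The members and lists were chosen with earlier results of these data known. The 14 alternatives were quantile normalization, centring on the upper quartile, normexp background correction with an offset of 50, restriction to brighter genes, array weights, a trended and robust eBayes (statmod 1.5.0), averaging a gene's probes, a block for the replicate number, and omission of each array. The fit was tested on simulated data, with changes given to genes above the median of all probe means. It called 46% of the genes changed by 0.5 on the log2 scale, 90% at 1 and 100% at 2. Of 18857 unchanged genes it called 6. The simulated noise was independent between genes, without the deviations that many genes of a real array share. These rates therefore do not measure the error of the fit on the real arrays. The number of arrays, 3 per group, limits the precision.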

Additional observations from a re-analysis of the deposited data

How the results depend on the processing

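At gene level Pdlim4 kept its direction and its call under all 14 alternatives, and Pdlim3 under all but 1. The number of members called higher, 3 in the deposited scaling, was 1 after background correction, 1 with the mean of all probes, 1 with the replicate block, and 1 to 3 when an array was left out. The number called lower, 1 in the deposited scaling, was 2 after quantile normalization, 2 after centring on the upper quartile, 2 with array weights, 2 with the mean of all probes, and 0 to 2 when an array was left out. The 0 arose without knockout replicate 3, where limma gave 3 members higher and 3 lower at an unadjusted p under 0.05. With the replicate block Pdlim5 and Pdlim7 did not pass (adjusted p = 0.0917 and 0.185), and 415 genes were called against 1196 without it. Deviations from the group mean correlated at -0.41, -0.34 and 0.22 between replicates of the same number. Between different numbers they reached 0.471 (wild type replicate 2 with knockout replicate 1) and 0.395 (wild type replicate 1 with knockout replicate 2). The other pairs of different numbers lay between -0.155 and 0.00817. The replicate number thus did not group the arrays that deviated most alike, and the reason was not tested. Over all genes the calls were 538 after background correction, 1862 after centring on the upper quartile, 2092 after quantile normalization, 3267 with array weights and 463 to 1594 when an array was left out. Directions that turned belonged to differences near 0 and the cause was not tested: when an array was left out, Csrp1 ranged from -0.049 to 0.128 at gene level and at probe level (ILMN_1260378), the dim Pdlim5 probe ILMN_2625458 from -0.119 to 0.037, and the dim Pdlim7 probe ILMN_1239436 from -0.027 to 0.044. The last was -0.005 when arrays were weighted. Fhl3 has no value under the restriction to brighter genes, since its probe lies below the limit. Signal over background limits Fhl3 and the dim probes of Pdlim4, Pdlim5, Pdlim7, Fhl1 and Fhl2.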
